A study of Mus musculus with 54 samples.

Results

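The cytochrome P450 genes of the S3 segment, the last stretch of the renal proximal tubule, are described here across all conditions of the study. They are the 43 genes of the expression table whose symbol is Cyp followed by a number, letters and a number, without a pseudogene suffix, of 19068 genes in all. Of the 43, 36 reached a mean of at least 1 TPM and were tested, among 15424 tested genes. TPM are transcript levels scaled for gene length, but 51 of the 52 libraries of the table sum to more than the nominal total of the unit, so a printed TPM is a level on the authors' scale and not a true share of a library. Tubules that stained for the lectin LTL but not for SGLT2, 70 to 80 per sample, were laser-captured from kidneys of male DBA mice aged 14 weeks, and their total RNA was sequenced. The table holds 52 libraries of 54 labelled samples in 9 groups. Nondiabetic mice (Ins2+/+) and Akita mice (Ins2 Akita/+), whose misfolding insulin leads to loss of beta cells and to diabetes, were each Sglt1+/+ (wild type) or Sglt1-/- (knockout), and each of these received vehicle or dapagliflozin, an SGLT2 inhibitor, at 10 mg per kg of diet. In a further group, Akita wild-type mice were injected under the skin with the GLP-1 receptor agonist semaglutide at 3 nmol per kg per day. All treatments lasted 2 weeks. There were 5 libraries of Akita wild-type mice on dapagliflozin, 5 on semaglutide, and 6 in each of the other groups. The labels do not say that each library came from a different mouse, so the p-values measure the spread between libraries, some of which may be technical.

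Cytochromes P450 are heme enzymes that insert oxygen into lipids, steroids and foreign compounds, using electrons passed to them by P450 reductase or, in mitochondria, by ferredoxin. In the proximal tubule the Cyp4a enzymes hydroxylate the end of fatty acids and make 20-HETE from arachidonic acid, while Cyp2c and Cyp2j enzymes make epoxides of the same fatty acid. Both kinds of product act on tubular sodium transport and on renal vessels. The tubule is also the site where vitamin D receives its activating hydroxyl group, and several P450 genes of the mouse kidney differ between males and females.

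The knocked-out gene followed the labels. Slc5a1, which encodes SGLT1, ranged from 0.151 to 1.34 TPM (median 0.809) in 24 knockout libraries and from 27.3 to 103 TPM (median 68.3) in 28 wild-type libraries. The S3 marker Slc7a13 averaged 913 TPM, but markers of the earlier segments S1 and S2 were present in every group, and so were markers of other cells. The summed level of 4 markers of the thick ascending limb had group medians from 531 to 1056 TPM (single libraries from 185 to 2879), 7 of macrophages and dendritic cells from 355 to 522 TPM and 8 of endothelium from 288 to 365 TPM. The mean log2(TPM + 1) of all tested markers of cells outside the proximal tubule is called the score of other cell types. Slc5a2, which encodes the SGLT2 that the captured tubules were chosen to lack, ranged from 3.93 to 205 TPM (median 18.2). Replicate 3 of the nondiabetic knockout mice on dapagliflozin stood apart, with the lowest mean log2(TPM + 1) of the S3 markers (7.98, beside a median of 9.48 over 52 libraries); the count of P450 genes that passed in the 3 averaged comparisons was 0 with and without it. The number of reads behind the values is not given in the sources used here.

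The S3 captures held a large P450 repertoire dominated by a few genes. All levels are those of whole captures, which also held markers of S1 and S2 and of other cells. The 43 genes summed to 5363 ± 1181 TPM (SD, n = 52; range 2667 to 9750), which was 0.544% of all TPM outside mitochondrial ribosomal RNA. Mean levels were at least 100 TPM for 11 genes, between 10 and 100 for 10, between 1 and 10 for 15 and below 1 for 7. The highest 2 genes, Cyp2j5 and Cyp2a4, held 40.4% of the summed TPM, the highest 6 held 78.5% and the highest 11 held 95%. A value was listed in every library for 30 genes, and 162 cells of the others were blank and were read as 0.

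**Figure D1:**
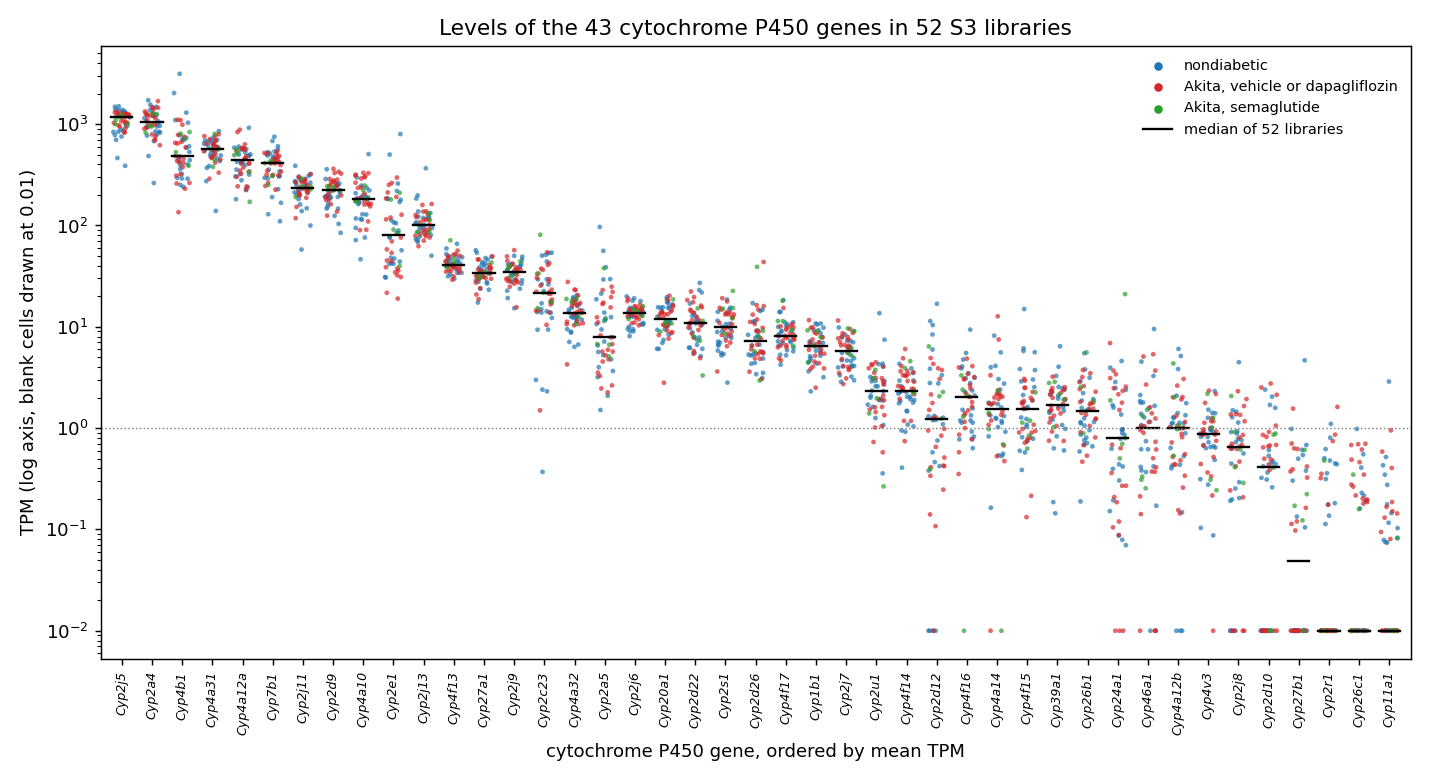
TPM (log axis) of the 43 P450 genes, ordered by mean level, with 1 point per library, a bar at the median of 52 libraries and blank cells drawn at 0.01. The 11 genes on the left have means of at least 100 TPM, and Cyp4b1, Cyp2e1, Cyp2c23 and Cyp2a5 spread more widely than their neighbours in the order.

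Fatty acid hydroxylases made up the largest share, 35.8% of the summed TPM with 13 genes. Cyp4b1, an enzyme of fatty acids and of furan toxins, led them with 636 ± 487 TPM (SD, n = 52), from 135 to 3144. Its level was uneven within groups: 6 nondiabetic wild-type libraries on dapagliflozin ranged from 252 to 3144 TPM with a median of 518. Of the Cyp4a genes, Cyp4a31 averaged 560 ± 146 TPM, Cyp4a12a, the main 20-HETE producer of male mice, 450 ± 162, and Cyp4a10, a peroxisome proliferator target, 196 ± 82.9. Cyp4a32 averaged 14.4 ± 4.62 TPM, Cyp4a14, also inducible by peroxisome proliferators, 2.08 ± 2.19, and Cyp4a12b 1.27 ± 1.26. Cyp4f13 was the most abundant Cyp4f gene at 42.7 ± 8.49 TPM, and at 29.1 to 71.4 TPM it had the smallest ratio of highest to lowest library among the tested P450 genes (2.45).

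Epoxygenases and their relatives of the Cyp2c and Cyp2j subfamilies held 28.3% with 8 genes. Cyp2j5, an arachidonic acid epoxygenase of the proximal tubule, had the highest mean of the family at 1096 ± 238 TPM (SD, n = 52; range 388 to 1502). Group medians of Cyp2j5 lay between 1007 and 1228 TPM, and the groups overlapped throughout. Cyp2j11 followed at 233 ± 59.7 TPM, Cyp2j13 at 110 ± 47.1 and Cyp2j9 at 34.7 ± 8.60. Cyp2c23, an arachidonic acid epoxygenase of the kidney, averaged 24.6 ± 16.2 TPM but ranged from 0.370 to 81.1.

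The subfamilies that include the drug- and toxin-metabolizing enzymes held 27.4% with 10 genes. Cyp2a4, a steroid 15-alpha-hydroxylase, averaged 1069 ± 302 TPM (SD, n = 52; range 263 to 1724). Cyp2d9, a testosterone 16-alpha-hydroxylase of male mice, averaged 222 ± 62.1 TPM. Cyp2e1, which oxidizes ethanol and acetone, averaged 125 ± 133 TPM and ranged from 19 to 799. Cyp2a5, a coumarin hydroxylase and the close relative of Cyp2a4, averaged 13.7 ± 16.0 TPM and ranged from 1.51 to 96.7. Cyp1b1, which hydroxylates estrogens and is a target of the aryl hydrocarbon receptor, averaged 6.66 ± 2.31 TPM.

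Sterol and steroid enzymes held 7.48% with 4 genes, nearly all of it from Cyp7b1, the oxysterol 7-alpha-hydroxylase, at 398 ± 133 TPM (SD, n = 52; range 110 to 752). Cyp51, the sterol demethylase of cholesterol synthesis, has a symbol outside the pattern and averaged 352 TPM. The vitamin D genes held 0.695%. Cyp27a1, the mitochondrial sterol 27-hydroxylase that can also hydroxylate vitamin D, made up most of this at 35.1 ± 8.60 TPM. Cyp24a1, which degrades active vitamin D, averaged 1.67 ± 3.08 TPM and was blank in 3 libraries. Cyp27b1, the 1-alpha-hydroxylase that activates vitamin D, averaged 0.299 ± 0.694 TPM and was blank in 26 of 52 libraries, and Cyp2r1, the 25-hydroxylase, averaged 0.197 ± 0.338 TPM and was blank in 32. Of the enzymes that clear retinoic acid, Cyp26b1 averaged 1.74 ± 1.17 TPM.

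The order of the levels was firm in some places and not in others. Cyp7b1 exceeded Cyp2j11, the next in the order, in 51 of 52 libraries, and Cyp2j13 exceeded Cyp4f13 in 51. Cyp2j5 exceeded Cyp2a4 in only 32 of 52, Cyp4a12a exceeded Cyp7b1 in 32, Cyp2j11 exceeded Cyp2d9 in 32, Cyp4b1 exceeded Cyp4a31 in 23 and Cyp2e1 exceeded Cyp2j13 in 22. These neighbours in the order therefore did not differ beyond their spread.

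Cyp2a4 and Cyp2a5 lie on chromosome 7 (chr7:26307169-26315088 and chr7:26835305-26843548, GRCm38, both on the plus strand) and are nearly the same gene in sequence, although their mean levels were 1069 and 13.7 TPM. Their coding sequences are 1482 bases long and differ at 23 of them (98.45% identity, from GENCODE vM21 transcripts). The coding bases 580 to 669 are shown because 5 of these differences fall in 90 bases, with the differing bases in capitals. The stretch crosses an intron, so it spans chr7:26309014-26310720 in Cyp2a4 and chr7:26837177-26838882 in Cyp2a5.
Cyp2a4: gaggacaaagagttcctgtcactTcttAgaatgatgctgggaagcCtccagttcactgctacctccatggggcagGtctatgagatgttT
Cyp2a5: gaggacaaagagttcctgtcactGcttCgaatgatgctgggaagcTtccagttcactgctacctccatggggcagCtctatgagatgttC
Reads that miss the differing bases cannot be told apart between the pair. Of all 50-base windows of the transcript, 36.1% in Cyp2a4 and 31.0% in Cyp2a5 occur in the other gene, and no source used here gives the authors' handling of such reads, so a low value of Cyp2a5 beside a high one of Cyp2a4 is uncertain. The same holds for Cyp4a12a and Cyp4a12b, which share 48.9 and 49.5% of their windows with each other. Windows shared with any other gene made up 46.8% of Cyp4a32, 30.5% of Cyp4a10, 29.0% of Cyp2d9 and 21.8% of Cyp4a31, but 4.77% of Cyp2e1, 0.174% of Cyp2j5 and 0% of Cyp7b1, Cyp2c23, Cyp27a1 and Cyp2j9.

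P450 genes varied more between libraries of one group than most genes did. The median within-group SD was 0.53 on the log2(TPM + 1) scale for the 36 tested P450 genes and 0.43 for all tested genes, and 30 of the 36 lay above the latter. For 6 of them the SD was above the 90th percentile of all tested genes: Cyp2e1 (1.27), Cyp2a5 (1.18), Cyp2c23 (1.16), Cyp2d12 (1.02), Cyp24a1 (0.91) and Cyp4b1 (0.87). The steadiest were Cyp4f13 (0.27) and Cyp2j6 (0.28).

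For part of the P450 genes, the variation within groups followed the segment markers of the libraries, in opposite directions for different genes. A score of 8 S1 and S2 genes (Slc5a2, Slc5a12, Slc34a1, Slc6a19, Slc7a8, Slc4a4, Gatm and Spp2) and a score of 9 S3 genes outside the P450 family (Slc7a13, Slc22a7, Slc22a19, Slc6a18, Slc3a1, Napsa, Atp11a, Aadat and Acsm3) were taken as the mean log2(TPM + 1) of each library. All values were expressed as deviations from the group mean, and 72 correlations, each of 36 genes with both scores, were tested over 52 libraries by 100000 permutations within groups with Benjamini-Hochberg adjustment. The scores themselves ran against each other (r = -0.64, rho = -0.57). Only genes that passed by both Pearson's r and Spearman's rho were counted. Of the P450 genes, 8 went with the S1 and S2 score and 7 against it. With the S3 score 10 went along and 5 ran against it. Others, such as Cyp4f13, Cyp2j9, Cyp20a1 and Cyp2s1, passed with neither score. How often genes outside the family pass with these scores was not tested, so the counts do not set P450 genes apart. In such bulk samples, fewer cells of a segment and less RNA per cell cannot be told apart. Slc7a13, Slc22a19, Napsa and Acsm3 of the S3 score are also in the list of androgen-dependent kidney genes used below. The part that androgen-dependent expression has in these correlations was not tested.

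Cyp2e1 was the P450 gene closest to the S1 and S2 score, with r = 0.89 and rho = 0.90 (permutation, adjusted p = 4.2e-05 for r and 6.5e-05 for rho, the smallest the permutations can give), and r = 0.89 without the 2 libraries farthest from the median score. Cyp2a5 (r = 0.76, rho = 0.71), Cyp4b1 (0.72 and 0.74), Cyp2d26 (0.69 and 0.58), Cyp2d12 (0.67 and 0.57), Cyp24a1 (0.60 and 0.60), Cyp2j13 (0.58 and 0.57) and Cyp4a12b (0.44 and 0.41) followed, with adjusted permutation p of at most 0.0067 for r and 0.014 for rho. Without the 2 farthest libraries, r of these 7 genes was 0.77, 0.69, 0.63, 0.65, 0.65, 0.54 and 0.46. Thus Cyp4b1, Cyp2e1 and Cyp2j13, which are among the 11 most abundant P450 genes, varied with the S1 and S2 markers rather than with those of S3. The 8 S1 and S2 genes were all in the table, and their summed level had medians from 379 TPM (Akita wild type, dapagliflozin) to 633 TPM (nondiabetic wild type, vehicle). Single libraries ranged from 232 to 1871 TPM on vehicle and from 337 to 2171 on dapagliflozin in nondiabetic wild-type mice, and from 281 to 851 and from 312 to 1344 in nondiabetic knockout mice. In Akita wild-type mice they ranged from 247 to 1268 TPM on vehicle, from 278 to 1021 on dapagliflozin and from 449 to 1672 on semaglutide, and in Akita knockout mice from 363 to 1921 and from 315 to 1601. None of the 8 stayed below 1 TPM in every library.

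Most of the other abundant P450 genes went with the S3 score. Cyp7b1 had r = 0.90 and rho = 0.90, Cyp2j5 0.89 and 0.85, Cyp2j11 0.89 and 0.85, Cyp2a4 0.86 and 0.77, Cyp4a31 0.81 and 0.68, Cyp4a10 0.74 and 0.63, Cyp4a32 0.69 and 0.69, Cyp4a12a 0.68 and 0.70, Cyp2d9 0.68 and 0.56 and Cyp2j6 0.53 and 0.50 (permutation, adjusted p of at most 0.0023 for r and 0.0031 for rho). Without the 2 libraries farthest from the median S3 score, r of these 10 genes was 0.86, 0.82, 0.83, 0.77, 0.70, 0.64, 0.63, 0.65, 0.58 and 0.43. The genes that ran against the S3 score were Cyp2d12 (r = -0.68, rho = -0.58), Cyp2d26 (-0.59 and -0.47), Cyp2u1 (-0.56 and -0.46), Cyp2e1 (-0.44 and -0.41) and Cyp2a5 (-0.42 and -0.37), with adjusted permutation p of at most 0.014 for r and 0.034 for rho. Without the 2 farthest libraries, r of these 5 genes was -0.60, -0.55, -0.37, -0.39 and -0.36.

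**Figure D2:**
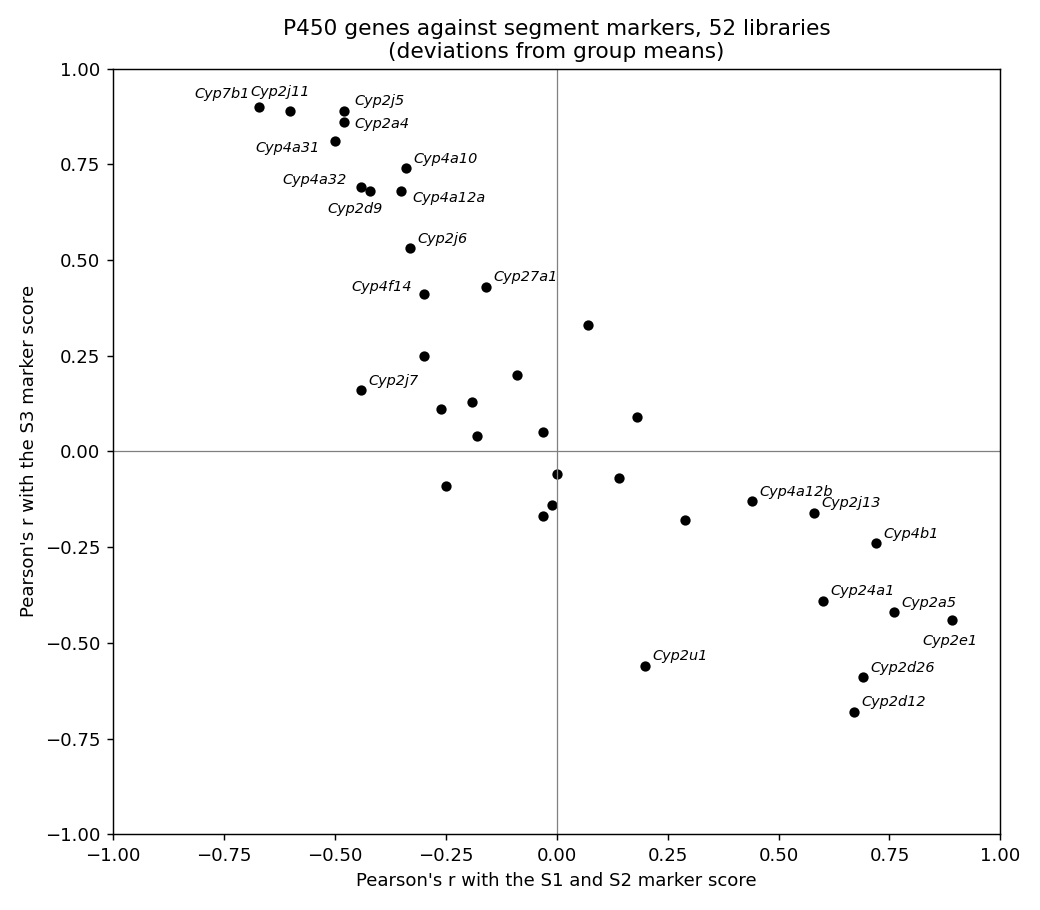
Pearson's r of each of the 36 tested P450 genes with the S1 and S2 marker score (horizontal) and with the S3 marker score (vertical), from deviations of 52 libraries from their group means; genes with r of at least 0.4 in size with either score are named. Cyp7b1, Cyp2j5, Cyp2j11 and Cyp2a4 sit at the upper left with r between 0.86 and 0.90 for the S3 score, and Cyp2e1 sits at the far right with r = 0.89 for the S1 and S2 score.

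Cyp2a4 and Cyp2a5 thus fell on opposite sides in spite of their sequence. Cyp2a4 had r = 0.86 with the S3 score and -0.48 with the S1 and S2 score, and Cyp2a5 had -0.42 and 0.76. The part that shared reads have in these correlations was not tested.

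**Figure D3:**
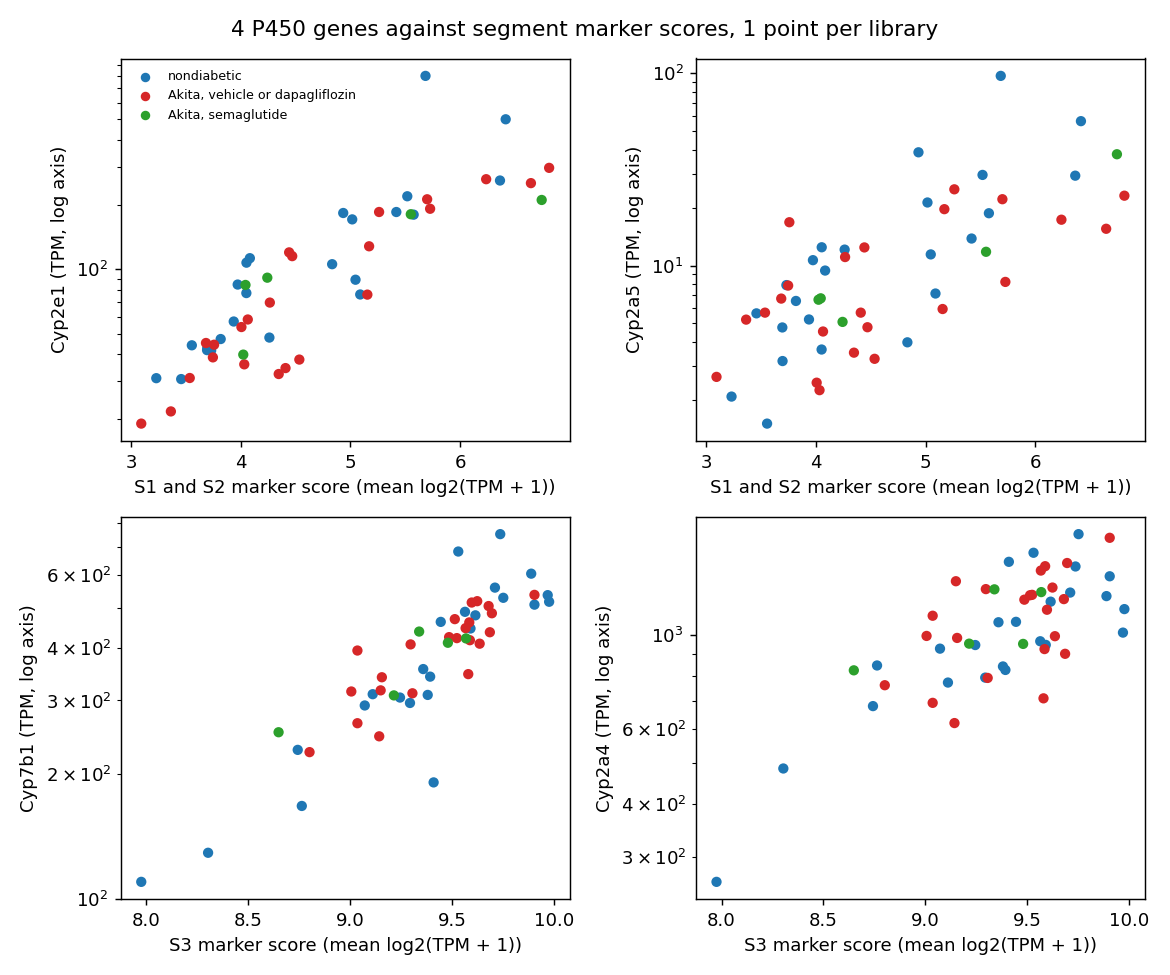
TPM (log axis) of Cyp2e1 and Cyp2a5 against the S1 and S2 marker score and of Cyp7b1 and Cyp2a4 against the S3 marker score, 1 point per library, coloured by nondiabetic, Akita on vehicle or dapagliflozin, and Akita on semaglutide. All 4 genes are higher where their score is higher, and the 3 colours overlap; Cyp2e1 spans 19 to 799 TPM and Cyp7b1 110 to 752 TPM.

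Among pairs of P450 genes the same sets appeared, given here as a description of 52 libraries that share depth and capture. Of 630 pairs, 22 had r of at least 0.7. The highest were Cyp2j5 with Cyp2j11 (0.93), Cyp4b1 with Cyp2j13 (0.91), Cyp2j5 with Cyp2a4 (0.91), Cyp2a4 with Cyp2j11 (0.87) and Cyp7b1 with Cyp2j11 (0.87). Of the genes that followed the S1 and S2 score, Cyp4b1 with Cyp2e1 had 0.85 and Cyp2e1 with Cyp2a5 0.84. Cyp2j13 therefore went with Cyp4b1 and not with Cyp2j5 (r = 0.05), which lies in the same Cyp2j cluster on chromosome 4. Outside the family, the gene most like Cyp2e1 was Slc22a6, the organic anion transporter OAT1 (r = 0.984), and those most like Cyp2j5 were Ugt3a2, Slc5a8 and Mep1a (up to 0.954). The gene most like Cyp4a10 was Reep6, followed by Ehhadh, an enzyme of peroxisomal fatty acid oxidation (up to 0.870), the one most like Cyp4a12a was Acsm3 (0.876), which is itself in the S3 score, and the one most like Cyp1b1 was Pdgfrb, a receptor of stromal cells (0.753).

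The start regions of 4 of these genes are shown to set the members of both sets side by side, 250 bases before to 50 after the start, from RefSeq on GRCm38.p6. In Cyp2a4 (chr7:26306942-26307241) and Cyp2a5 (chr7:26835089-26835388) the capitals mark the 5 of 299 aligned bases that differ, the windows being shifted by 1 base. In Cyp2e1 (chr7:140763569-140763868, plus strand) and Cyp2j5 (chr4:96664070-96664369, minus strand) the capitals mark the TATA box letters TATAAA, which in Cyp2j5 are on the opposite strand.
Cyp2a4: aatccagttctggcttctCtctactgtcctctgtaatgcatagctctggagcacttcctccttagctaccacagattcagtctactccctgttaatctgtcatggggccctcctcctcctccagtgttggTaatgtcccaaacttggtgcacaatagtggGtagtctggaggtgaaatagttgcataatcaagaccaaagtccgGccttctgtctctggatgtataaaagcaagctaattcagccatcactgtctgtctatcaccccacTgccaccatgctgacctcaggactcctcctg
Cyp2a5: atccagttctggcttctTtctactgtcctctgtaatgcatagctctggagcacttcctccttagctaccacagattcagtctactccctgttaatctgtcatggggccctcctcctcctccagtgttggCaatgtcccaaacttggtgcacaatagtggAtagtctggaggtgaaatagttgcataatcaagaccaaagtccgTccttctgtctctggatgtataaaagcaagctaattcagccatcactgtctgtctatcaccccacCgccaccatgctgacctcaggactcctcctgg
Cyp2e1: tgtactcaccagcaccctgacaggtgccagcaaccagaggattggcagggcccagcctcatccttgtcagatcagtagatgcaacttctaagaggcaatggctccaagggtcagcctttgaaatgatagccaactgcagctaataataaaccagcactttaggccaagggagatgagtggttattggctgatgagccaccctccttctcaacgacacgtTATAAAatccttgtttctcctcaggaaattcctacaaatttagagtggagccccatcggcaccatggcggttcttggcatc
Cyp2j5: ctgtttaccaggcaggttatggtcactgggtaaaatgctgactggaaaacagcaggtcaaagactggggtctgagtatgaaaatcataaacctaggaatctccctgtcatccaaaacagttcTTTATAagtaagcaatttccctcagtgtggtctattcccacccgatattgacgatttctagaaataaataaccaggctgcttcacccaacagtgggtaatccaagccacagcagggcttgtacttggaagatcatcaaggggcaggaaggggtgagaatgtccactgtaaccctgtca
The promoters of Cyp2a4 and Cyp2a5 were thus as alike (98.3%) as their coding sequences. The letters TATAAA, searched on both strands, were found in 9 of 34 start regions of 29 P450 genes (26.5%) and in 13.6% of all 32851 start regions. The letters CCAAT, searched in the same way, were found in 20 of the 34 (58.8%) and in 37.4% of all start regions. Neither search can match the letters of the other. A match describes the letters and not a bound site.

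Diabetes was compared in the 23 Akita and 24 nondiabetic libraries of the 8 groups on vehicle or dapagliflozin, with limma on log2(TPM + 1) and adjustment over all 15424 tested genes. No P450 gene was called: 0 of 36 passed at an adjusted p under 0.05 (limma), where 149 of all tested genes passed (percent called 0.966), and 2 of 36 (5.56%) had an unadjusted p under 0.05, beside 13.4% of all tested genes. Of the 36, 22 were above 0 and 14 below, with a median log2 difference of 0.05, beside 0.03 for all tested genes. Cyp4f14, a leukotriene hydroxylase, had the smallest p. It ranged from 0.744 to 6.03 TPM (median 2.87) in Akita mice and from 0.407 to 4.31 TPM (median 1.98) in nondiabetic mice, so the groups overlapped, but 19 of 23 Akita libraries lay above the nondiabetic median (log2 difference 0.34, SE 0.14, limma adjusted p = 0.253). Cyp2d9 ranged from 125 to 363 TPM (median 245) in Akita mice and from 84.6 to 359 TPM (median 194) in nondiabetic mice, with 17 of 23 Akita libraries above the nondiabetic median (0.29, SE 0.13, limma adjusted p = 0.275). Cyp4a10 had medians of 189 and 176 TPM (0.36, SE 0.18, limma adjusted p = 0.373).

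The P450 genes with lower values in Akita mice included Cyp2e1, with a median of 58.2 TPM (range 19 to 297) against 87 TPM (range 30.6 to 799). This log2 difference of -0.43 had an SE of 0.37 (limma adjusted p = 0.650) and overlapping groups. It depended on the covariate, running from -0.49 to 0.03 over the alternative settings. Its sign turned when the score of other cell types was a covariate (0.03). With the S1 and S2 score as a covariate its adjusted p was 0.115 (limma), which did not pass. That was the smallest adjusted p of P450 genes over all alternatives of this comparison. Cyp4f15 (-0.38) and Cyp2d12 (-0.40, but 0.01 adjusted for the score of other cell types) are named with Cyp2e1 for their small p. Of the rest below 0, Cyp2a5 had a difference of -0.39 and Cyp4b1 of -0.26. The intervals bound what may have been missed: the 95% interval lay within 2-fold for 33 of 36 P450 genes and within 1.5-fold for 27. For Cyp2j5 the Akita libraries ranged from 825 to 1322 TPM (median 1185) and the nondiabetic ones from 388 to 1502 TPM (median 1177).

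In wild-type mice on vehicle, 6 libraries against 6, the comparison was again without a call: 0 of 36 P450 genes passed (limma; percent called over all genes 0.389) and 0 had an unadjusted p under 0.05. Cyp2d9 ranged from 179 to 363 TPM (median 266) in Akita mice and from 125 to 225 TPM (median 206) in nondiabetic mice, with overlap (0.42, SE 0.25, limma adjusted p = 0.581). All 6 Akita libraries of Cyp4a10 lay above the nondiabetic median of 149 TPM, but 1 nondiabetic library reached 507 TPM, above the Akita range of 155 to 331 (0.47, SE 0.35, limma adjusted p = 0.696). Without nondiabetic replicate 2 or 4 this difference was 0.25 or 0.79. Cyp2a5 had the lowest difference, with a median of 5.47 TPM against 20.8 (-0.89, SE 0.66). Cyp4a32 (0.35), Cyp4f13 (-0.23) and Cyp2d12 (-0.74) also had adjusted p of at least 0.650. Here the interval lay within 2-fold for 25 of 36 and within 1.5-fold for 7.

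Dapagliflozin was compared with vehicle in 23 and 24 libraries. Of 36 P450 genes 0 passed (limma; percent called 0, since no tested gene passed) and 1 had an unadjusted p under 0.05. The differences of 27 P450 genes were below 0 and of 9 above, with a median of -0.10, beside a median of 0.00 for all genes. These directions are not separate observations, since some P450 genes varied together (r of at least 0.7 in 22 of 630 pairs). Cyp2j9 ranged from 27.4 to 57.1 TPM (median 36.6) on dapagliflozin and from 15.3 to 50.2 TPM (median 31.6) on vehicle, and 17 of 23 dapagliflozin libraries lay above the vehicle median. The groups overlapped (log2 difference 0.30, SE 0.10, limma adjusted p = 0.999). Cyp2c23 went the other way, from 0.370 to 42.5 TPM (median 18.6) on dapagliflozin and from 1.5 to 54.4 TPM (median 28.8) on vehicle, with 20 of 23 dapagliflozin libraries below the vehicle median. Its difference of -0.54 had an SE of 0.33 (limma adjusted p = 0.999). Cyp24a1 had medians of 0.626 and 1.44 TPM (-0.45, SE 0.26), and Cyp20a1, a P450 without a known substrate, 11.1 and 14.2 TPM (-0.22, SE 0.14). Cyp27a1 (0.12) and Cyp4f14 (0.15) were the next above 0. The interval lay within 2-fold for 35 of 36 P450 genes, Cyp2c23 being the exception.

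Loss of Sglt1 was compared in 24 knockout and 23 wild-type libraries. Of 36 P450 genes 0 passed (limma; percent called 0.0519, 8 genes) and 2 had an unadjusted p under 0.05. Cyp27a1 had the smallest p of any P450 gene in the 5 main comparisons. It ranged from 17.4 to 49.2 TPM (median 31.4) in knockout and from 23.2 to 57 TPM (median 38.4) in wild-type mice. The groups overlapped, but 21 of 24 knockout libraries lay below the wild-type median (log2 difference -0.32, SE 0.10, limma adjusted p = 0.314). Cyp2j9 had medians of 31.4 and 36.7 TPM (-0.21, SE 0.10, limma adjusted p = 0.686). Cyp2a4 had medians of 974 and 1233 TPM, with 20 of 24 knockout libraries below the wild-type median (-0.22, SE 0.14, limma adjusted p = 0.775). With the S3 score as a covariate, an alternative chosen after seeing the data, Cyp2a4 passed (-0.33, limma adjusted p = 0.0382; over all alternatives of this comparison the adjusted p of P450 genes ran from 0.0382 to 1). Of the P450 genes above 0, Cyp1b1 (0.13, but -0.01 after adjusting for summed TPM), Cyp4a12a (0.14) and Cyp4f13 (0.07) had the smallest p. All 36 intervals lay within 2-fold and 28 within 1.5-fold.

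Semaglutide was compared with vehicle in Akita wild-type mice, 5 libraries against 6. Of 36 P450 genes 0 passed (limma; percent called 0) and 0 had an unadjusted p under 0.05. Cyp4f13 stood at 38.9, 40.5, 42.7, 46.6 and 71.4 TPM on semaglutide and from 29.1 to 56.5 TPM (median 38.6) on vehicle. All 5 semaglutide libraries lay above the vehicle median, within the spread of the groups (0.25, SE 0.16, limma adjusted p = 0.998). Cyp4a14 stood at 0, 0.692, 0.975, 1.42 and 2.33 TPM on semaglutide and from 0.528 to 7.49 TPM (median 1.88) on vehicle (-0.66, SE 0.45, limma adjusted p = 0.998). Cyp2s1 (0.40), Cyp4a12b (0.46), Cyp2d22 (-0.43) and Cyp46a1 (-0.41) had the same adjusted p. Leaving out 1 library moved each of the 6 named differences by over 1.5 times, for example Cyp4f13 to 0.10 and Cyp2d22 to -0.16 without semaglutide replicate 5, Cyp4a12b to 0.19 without semaglutide replicate 4 and Cyp46a1 to -0.20 without vehicle replicate 4. Of the 5 main comparisons this was the least precise: the interval lay within 2-fold for 23 of 36 and within 1.5-fold for 5. Cyp2e1 had the largest log2 difference, 0.73, with semaglutide libraries at 39.9, 84.3, 91.2, 180 and 210 TPM and vehicle libraries from 21.6 to 212 TPM.

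**Figure D4:**
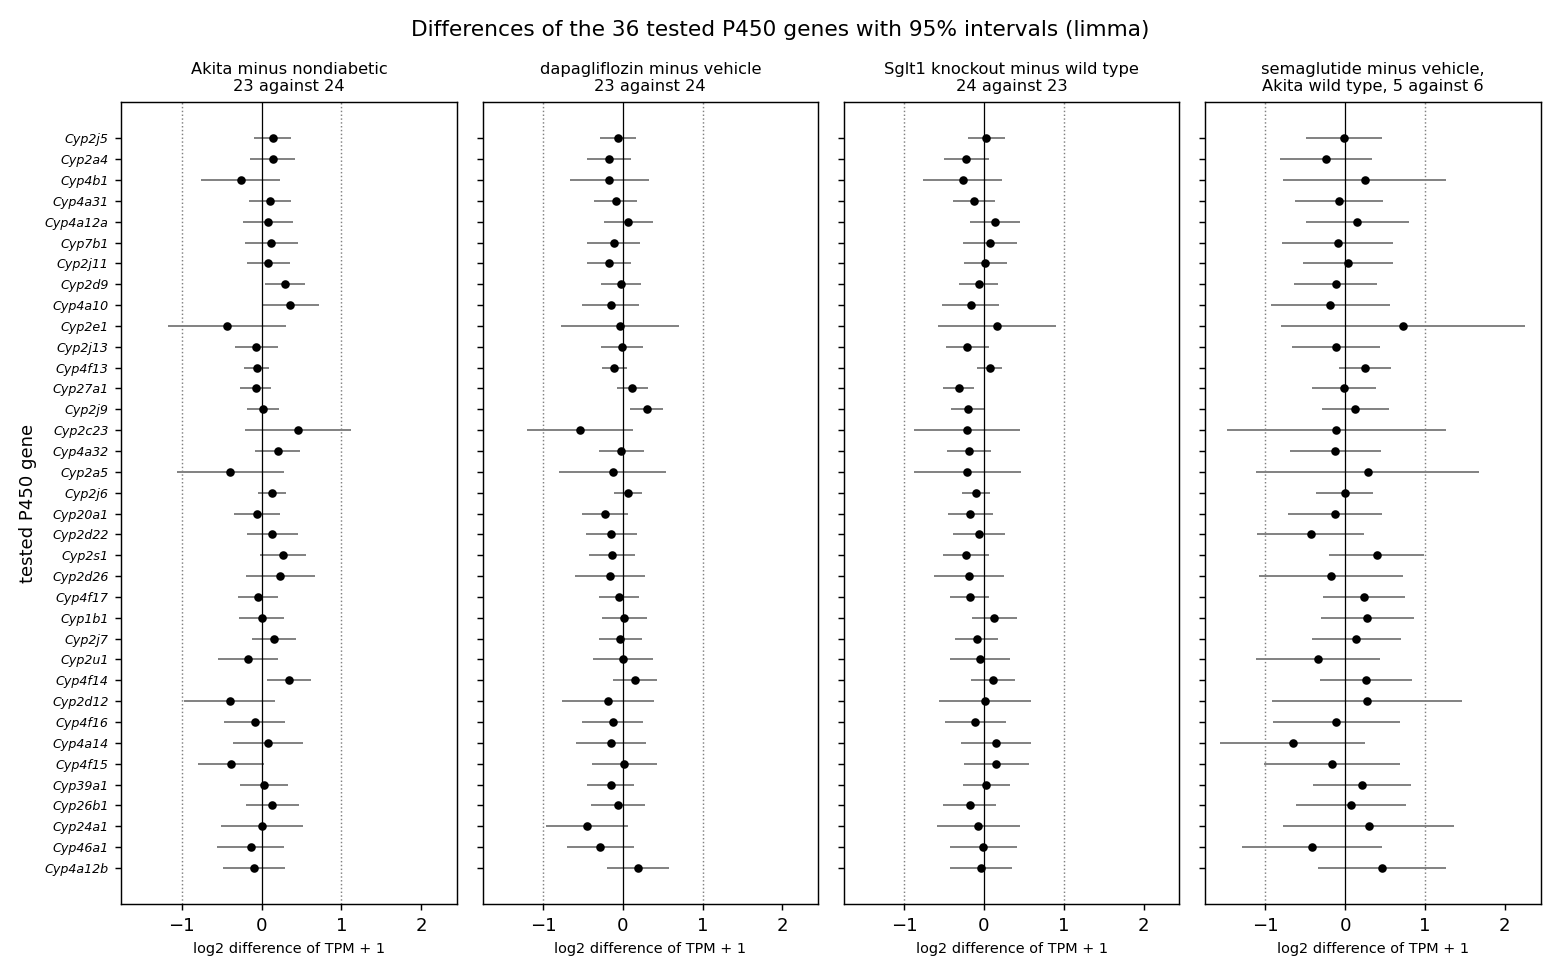
Log2 difference of TPM + 1 (points) with its 95% interval (lines) for the 36 tested P450 genes, ordered by mean level, in 4 comparisons; dotted lines mark a 2-fold difference. No gene passed after adjustment, and the lines are longest for Cyp2e1, Cyp2c23 and Cyp2a5 and in the semaglutide comparison.

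In the 14 other contrasts and 3 interactions, again 0 of 36 P450 genes passed (limma), where the percent called over all genes was 0, 0.00648, 0.0195, 0.0259 or 0.0324. Over all 22 comparisons, 19 of 792 tests of P450 genes had an unadjusted p under 0.05, or 2.40%, beside 5.29% for all genes. In the interaction of diabetes with knockout, 3 of 36 P450 genes (8.33%) had such a p, beside 3.33% of all genes: Cyp46a1, the cholesterol 24-hydroxylase (-1.04, SE 0.42), Cyp2d22 (0.76, SE 0.32) and Cyp2s1 (0.61, SE 0.29). Their adjusted p were all 1 (limma). In the interaction of knockout with dapagliflozin it was Cyp2d12 (1.22, SE 0.57, limma adjusted p = 0.999).

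The genes that serve the P450 enzymes were well expressed. Por, the reductase that feeds microsomal P450s, averaged 856 TPM, Cyb5a 405, Ephx2, which hydrolyses fatty acid epoxides, 251, and Alas1, the first enzyme of heme synthesis, 93.7. Of the regulators, Hnf4a averaged 411 TPM, the vitamin D receptor Vdr 82.7 and Ppara 53.4. Among 10 tested electron donors and epoxide hydrolases, 1 passed in the 5 main comparisons. This was Ephx1, the microsomal epoxide hydrolase, which was higher in Akita mice in both diabetes comparisons. It ranged from 41.0 to 72.8 TPM in 6 Akita and from 9.42 to 33.0 TPM in 6 nondiabetic wild-type libraries on vehicle, without overlap (1.73, SE 0.33, limma adjusted p = 0.00305). Over 8 groups, which include these libraries, it ranged from 7.86 to 72.8 TPM (median 27.7) in 23 Akita and from 9.42 to 33.0 TPM (median 17.9) in 24 nondiabetic libraries, which overlapped (0.72, SE 0.17, limma adjusted p = 0.0203). Values of Ephx1 in the knockout and dapagliflozin groups alone are not given here. No gene passed in the 5 main comparisons (limma) among 12 heme genes, 15 tested regulators, 3 tested targets of the aryl hydrocarbon receptor, 15 tested targets of PPAR alpha and 10 androgen-dependent kidney genes. In the averaged diabetes comparison, 2 of 10 electron donors and epoxide hydrolases, 5 of 12 heme genes and 3 of 15 regulators had an unadjusted p under 0.05, beside 13.4% of all tested genes. In the averaged knockout comparison the counts were 3, 0 and 1 in the same order, beside 7.22% of all tested genes. In the averaged dapagliflozin comparison they were 0, 0 and 1, beside 4.1%. Targets of the aryl hydrocarbon receptor, targets of PPAR alpha and androgen-dependent genes had counts of 0 in the averaged diabetes and knockout comparisons. Their counts in the averaged dapagliflozin comparison were 0, 1 and 1 in this order.

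Cyp2c23 (chr19:44005022-44029208, GRCm38, minus strand) stood apart in the genes outside the family that it varied with, a pattern noticed in the data and given as a description without a test. Its libraries spanned 2.31 to 29.4 TPM in nondiabetic wild-type mice on dapagliflozin and 13.9 to 54.4 TPM in Akita wild-type mice on vehicle. Its relation to either segment score did not pass (r = -0.30, rho = -0.31 with the S1 and S2 score, adjusted permutation p = 0.081 and 0.078; r = 0.25, rho = 0.05 with the S3 score, adjusted p = 0.23 and 0.81; r = -0.35 and 0.02 without the 2 farthest libraries). Of all tested genes, the 4 most like it over 52 libraries were Abcc2 (r = 0.796), Erlin1 (0.774), Cpn1 (0.704) and Btrc (0.654). All 4 lie within 5 Mb of it on chromosome 19, where 97 tested genes lie (0.630% of all). Abcc2, the apical organic anion transporter MRP2 (chr19:43782192-43840740), averaged 304 TPM and Cpn1 (chr19:43956307-43986556) 14 TPM.

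Among genes outside the family, the other P450 genes did not show this to the same extent. For 33 of 36, none of the 10 most alike of these genes lay within 5 Mb, and for Cyp26b1 and Cyp4a12b 1 did. P450 genes were left out of this ranking. Some that lie together on chromosome 4 did vary together, such as Cyp2j5 with Cyp2j11 (r = 0.93) and Cyp4a31 with Cyp4a10 (0.85). For Cyp2c23, r was at least 0.5 in size for 3 of 23 genes within 1 Mb (13%), 7 of 74 genes from 1 to 5 Mb (9.46%) and 65 of 15291 other tested genes outside the family (0.425%). No 50-base window of the Cyp2c23 transcript occurs in another gene. Values of 52 libraries share depth and capture, and what moves these neighbours together was not tested.

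**Figure D5:**
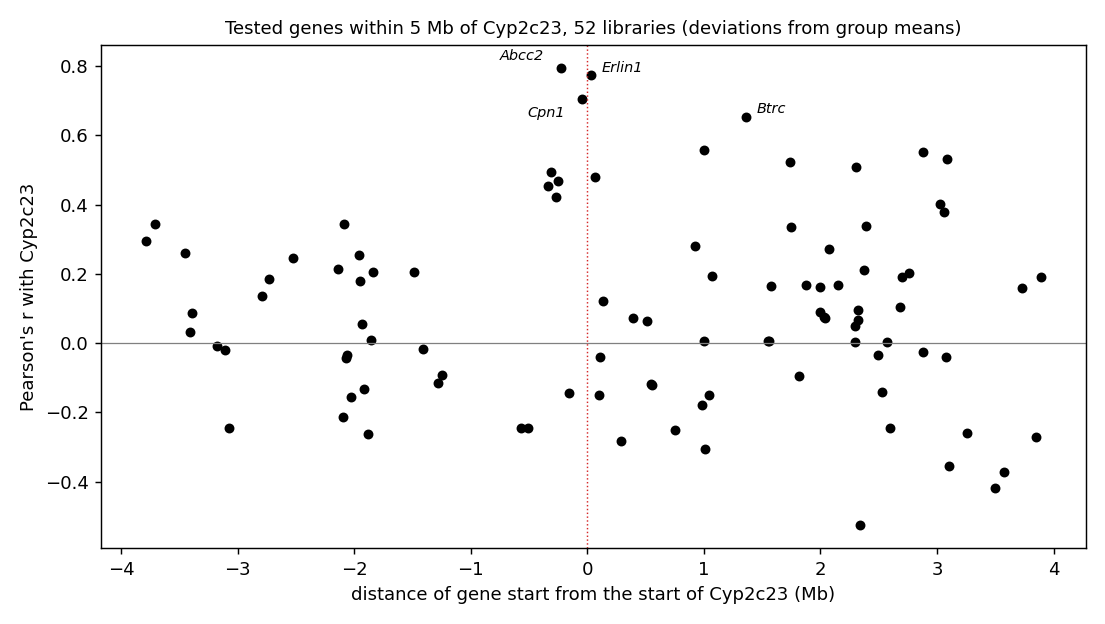
Pearson's r with Cyp2c23 (deviations from group means, 52 libraries) of the tested genes within 5 Mb, against the distance of their start from that of Cyp2c23 in Mb. Abcc2, Erlin1 and Cpn1, with r from 0.704 to 0.796, lie close to it, Btrc (0.654) lies 1.36 Mb away, and most other neighbours are between -0.5 and 0.5.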

How the data were processed

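The authors deposited log10 values of TPM, per the labels' protocols made from SMARTer stranded total RNA libraries and, per the submitters' processing notes, on GRCm38. No source used here gives the aligner, annotation, read length, depth or the counting of shared reads, and counting error is unknown. Of 54 samples, 52 have a column. The replicates without one are Akita wild-type dapagliflozin 2 and semaglutide 1.

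Values were turned back to TPM, with blanks as 0. A limma 3.58.1 model (R 4.3.3 with the data.table package, version 1.17.8; eBayes, trend and robust) of log2(TPM + 1) had 1 mean for each of 9 groups and took genes whose mean reached 1 TPM. Genes passed at an adjusted p under 0.05. The averaged comparisons weight groups equally. Correlations used scipy 1.17.1, numpy 2.4.6 and pandas 2.3.3 (Python 3.11.15), and figures matplotlib 3.10.9. In a simulation, the libraries were dealt at random over the groups and known changes were added to genes drawn from all 15424 tested. In the averaged diabetes comparison limma recovered 56.8, 91.6 and 98.8% of log2 changes of 0.5, 1 and 2, with 250 changes per size. In the semaglutide comparison it recovered 5.6, 54.4 and 90.4%. P450 genes, whose median within-group SD was higher than that of all tested genes, were not simulated apart, so these shares may not hold for them.

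The members and gene lists were chosen with earlier results of these data known. Named are the 12 most abundant P450 genes, the vitamin D, Cyp4a and retinoic acid genes, in each main comparison the 3 higher and 3 lower ones of smallest p, and partner genes that passed; others named were chosen after their values were seen. Alternatives covered the pseudocount, filters, scaling, covariates and left-out libraries. Positions came from GENCODE vM21 and start regions from RefSeq.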

Additional observations from a re-analysis of the deposited data

Results flagged for a closer look

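A library was marked where its gap to the nearest other library of its group exceeded Dixon's 95% value on the log2(TPM + 1) scale. Of 252 groups of libraries examined for the named P450 genes, 19 had such a library, and chance marks about 1 in 20. Of the 19, 8 were replicate 3 of the nondiabetic knockout mice on dapagliflozin. It was the lowest of its group for Cyp2a4 (263 TPM, next 793), Cyp4a31 (139, next 386), Cyp7b1 (110, next 296), Cyp2j11 (57.9, next 182), Cyp2d9 (84.6, next 189), Cyp2c23 (0.37, next 9.36) and Cyp4a32 (6.34, next 12.3), and the highest for Cyp24a1 (2.49, next 0.975). This library also had the lowest S3 score of all 52, and whether that bears on these values was not tested.

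In Akita knockout mice on vehicle, Cyp7b1 stood low at 225 TPM, Cyp27a1 at 20.8 and Cyp2c23 at 1.5, each in a different library, and Cyp4a14 stood high at 12.7 TPM. In Akita knockout mice on dapagliflozin, Cyp2j11 (118 TPM) and Cyp20a1 (2.81) were low in replicate 4, and Cyp4a14 was listed at 0 in replicate 6. In wild-type mice, Cyp2s1 was low at 3.62 TPM in an Akita library on dapagliflozin, and Cyp4f14 was high at 4.31 TPM in a nondiabetic library on dapagliflozin. Cyp4a14 was high at 8.18 TPM in a nondiabetic wild-type library on vehicle, and Cyp24a1 was high at 21 TPM in an Akita library on semaglutide, where the next library had 1.88.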

How the results depend on the processing

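Leaving out each library in turn gave 0 P450 genes called in all 164 fits, and so did 54 of 55 other fits, which changed the pseudocount, the filter, the scaling, the weights or the covariates, or left out the 3 libraries highest in markers of other cell types. In the exception, the S3 score as a covariate, 1 was called in the averaged knockout comparison: Cyp2a4 (-0.33, limma adjusted p = 0.0382). Of 1314 fits of 30 named differences, 1310 kept their direction and side of the threshold and 3 reversed: adjusted for the other-cell-type score, Cyp2d12 (0.005) and Cyp2e1 (0.028) in the averaged diabetes comparison, and, adjusted for each library's summed TPM, Cyp1b1 (-0.011) in the averaged knockout comparison. The cause was not tested. Sizes moved more: leaving out 1 library moved 16 of the 30 named differences by over 1.5 times (all 6 of the semaglutide comparison and 5 of 6 in wild-type mice on vehicle), and another setting moved 19. No paired analysis was possible because no number in the labels is shared by libraries of different groups. Read depth is unknown, so counting noise could not be set apart.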
